A study of Sus scrofa with 21 samples.

Results

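The genes of the swine leukocyte antigen (SLA) class I family and B2M were followed in the whole blood of DD and LW pigs. A probe was taken as a member when its gene name or description on the array named SLA-1, SLA-2, SLA-3, SLA-5, SLA-6, SLA-7, SLA-8 or B2M, which gave 35 probes of 60305. They were 7 probes for SLA-1, 8 for SLA-3, 2 for SLA-5, 2 for SLA-6, 1 for SLA-7, 4 for SLA-8 and 11 for B2M, so that 7 of the 8 genes were named on a probe. SLA-2 had 0 probes, but the transcripts listed for 3 probes of SLA-1 and SLA-3 (A_72_P440391, A_72_P440386 and A_72_P683231) included one of SLA-2. Those of all 3 also included one of LOC100513601, and those of A_72_P683231 one of SLA-5. The gene given for a probe is thus the name on the array, and a probe may read other genes as well. The look-up was incomplete. Of the RefSeq transcripts listed, 1 of 3 was matched to a gene for A_72_P649741 and 0 of 2 for A_72_P035616. Probes with no RefSeq transcript listed, such as A_72_P124686, could not be looked up. The DD group was 10 minipigs of an inbred line that is homozygous at the SLA locus (labelled SLAdd), from 5 litters. The LW group was 11 Large White pigs from 6 litters, whose SLA types were not used here. Every pig was 60 days old and had been fed the same diet ad libitum, without a treatment. The SLA haplotype and all other differences between the breeds cannot be told apart in this design.

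Class I molecules are the cell surface proteins that show peptides from inside the cell to CD8 T cells and to natural killer cells. Each is a heavy chain, coded by an SLA gene, bound to the small light chain β2-microglobulin, coded by B2M. SLA-1, SLA-2 and SLA-3 are the classical heavy chains, which are highly polymorphic and made by nearly all nucleated cells. SLA-6, SLA-7 and SLA-8 are the non-classical ones, and SLA-5 lies among the classical genes. The genes are induced by interferons, and leukocytes are among the cells richest in them.

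In the RefSeq table of the Sscrofa11.1 assembly, the heavy chain genes lay on chromosome 7 and in 2 groups. SLA-1 (chr7:22824137-22920154), SLA-5 (chr7:22851888-22854782), SLA-2 (chr7:22916747-22959405) and SLA-3 (chr7:22938211-22942735) made the first, and SLA-8 (chr7:23622352-23625818), SLA-7 (chr7:23634731-23638722) and SLA-6 (chr7:23645335-23649342) the second. B2M was listed on chromosome 1 in 2 entries (chr1:126837721-126844043 and chr1:126865767-126878501). The array carried its own transcripts, so no probe was placed on the genome here.

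Some probes overlapped with few or no differences, and 14 pairs of member probes shared part of their 60 bases. Most of these pairs were probes of the same gene, B2M among them, and the others joined SLA-1 with SLA-3. The pairs below are shown because the breeds were later compared on them, and capitals mark the bases that differ within a pair. The first is a probe named SLA-1 and another named SLA-3, which shared 59 bases with 4 differences.
A_72_P440391 (SLA-1): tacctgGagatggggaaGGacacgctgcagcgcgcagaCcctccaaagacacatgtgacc
A_72_P440386 (SLA-3): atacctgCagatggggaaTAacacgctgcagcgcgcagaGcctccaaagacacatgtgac

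A pair of SLA-8 probes shared 58 bases with 1 difference.
A_72_P541846 (SLA-8): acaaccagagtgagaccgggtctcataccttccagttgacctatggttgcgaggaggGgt
A_72_P734731 (SLA-8): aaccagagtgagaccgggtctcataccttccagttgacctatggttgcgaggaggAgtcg

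A pair of SLA-3 probes near the 3′ end of the transcript shared 57 bases with 2 differences, and 30 of the shared bases hold the first of them.
A_72_P515992 (SLA-3): ctacccaccggcacagttccaagggtCggt
A_72_P609764 (SLA-3): ctacccaccggcacagttccaagggtAggt

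The SLA-1 probe CUST_174 and the SLA-3 probe A_72_P649741 shared 53 bases with 7 differences, most of which lie in these 30 bases.
CUST_174 (SLA-1): cagcAgcAtTtgaaTgTgtctgtgtCccta
A_72_P649741 (SLA-3): cagcTgcCtCtgaaAgGgtctgtgtTccta

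Another pair of SLA-3 probes, A_72_P682906 and A_72_P625308, shared 42 bases with 0 differences. They differed only by the 18 bases that each had outside the overlap, at the 5′ end of the former and the 3′ end of the latter.
A_72_P682906 (SLA-3): ggcaatggaccatctcca
A_72_P625308 (SLA-3): gccgaggaaacacaggag

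The only SLA-5 probe whose signal was to differ between the breeds, and a B2M probe from the first part of its transcript, overlapped no other member probe.
A_72_P414498 (SLA-5): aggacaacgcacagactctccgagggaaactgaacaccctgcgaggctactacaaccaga
A_72_P709927 (B2M): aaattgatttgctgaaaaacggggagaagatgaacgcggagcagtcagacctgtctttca

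Of the added probes, whose identifiers begin with CUST and are given without their common ending, CUST_232 and CUST_40 for B2M had the same 60 bases. CUST_238 was named SLA-1, but its description named another gene, PDZ and LIM domain 7, although it shared 58 bases with the SLA-1 probe CUST_30 with 1 difference.

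The 21 arrays lay on 3 chips, each with both breeds, and their number sets how precise a value can be. The DD arrays were dimmer. Brightness, as the 75th percentile of the scanner's processed signal on the log2 scale, was 7.53 ± 0.54 (SD, n = 10) against 8.22 ± 0.38 (SD, n = 11) in LW pigs. The gap was smallest on chip 1 (7.95 against 8.02) and largest on chip 3 (7.09 against 8.36). On an array, 44.7% to 63.8% of probes stood well above background. Of the 35 member probes, 32 were well above background on all arrays, and 0 of their spots, like 0 spots on the whole array, were saturated.

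Some probes of the heavy chains SLA-1, SLA-3 and SLA-5 gave a lower signal in DD pigs, whereas no B2M probe passed the threshold. With limma (breed and chip as fixed effects, sow as a random block, Benjamini-Hochberg adjustment over the 45228 probes tested, threshold of 0.05), 7 member probes were lower and 1 was higher in DD pigs, and 27 were not called. All 35 passed the filter on dim probes. The background was high, since 10.7% of all probes were called lower and 11.0% were called higher, 21.7% in either direction. For the members, 7 of 35 were called lower and 1 of 35 higher. The log2 FC (DD over LW) was negative for 31 of the 35 probes, with a median of −0.20, beside a median of −0.07 and 57.6% of negative values among all probes tested. The called probes belonged to SLA-1 (2 of 7), SLA-3 (4 of 8), SLA-5 (1 of 2) and SLA-7 (1 of 1). In whole blood, fewer cells that carry a transcript and less of it per cell cannot be told apart.

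**Figure D1:**
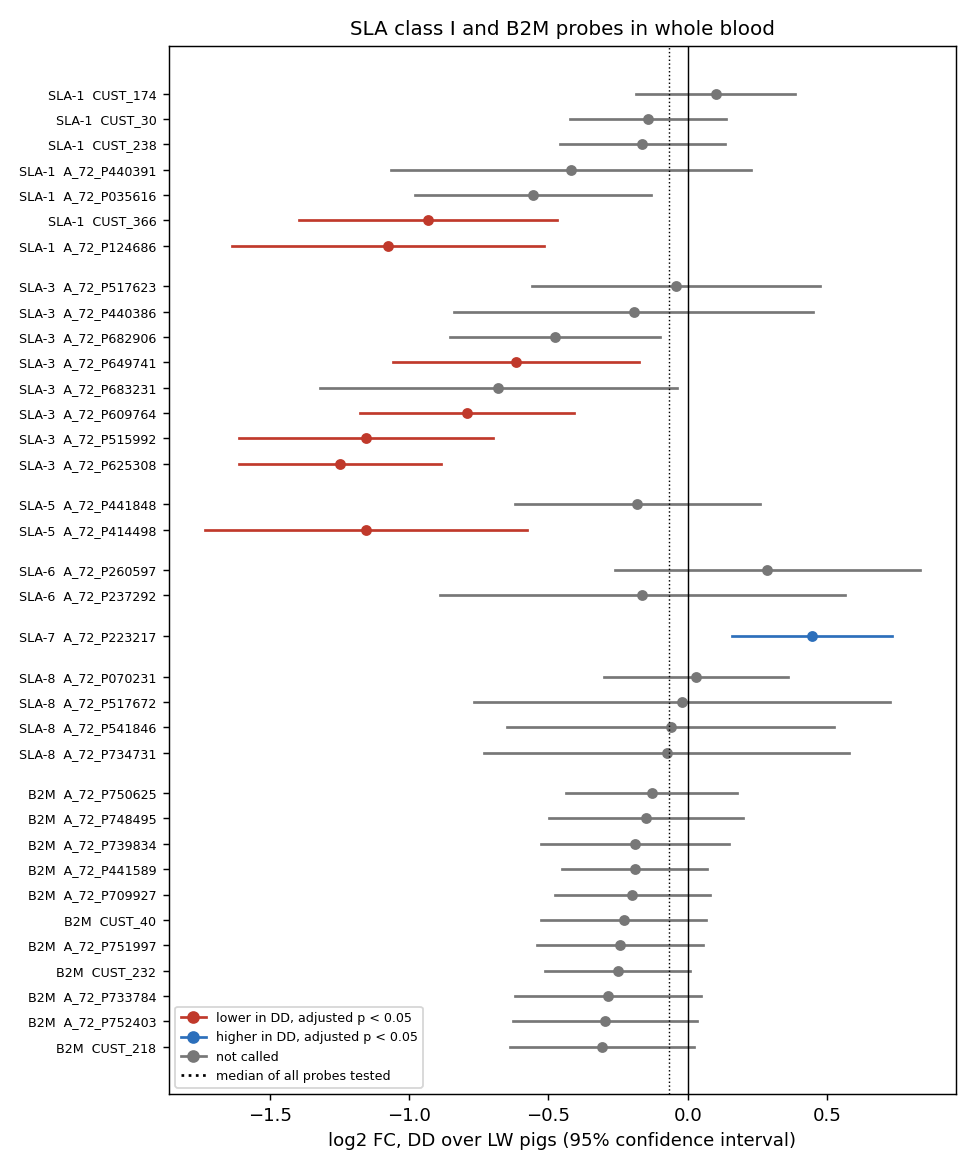
Each point is the log2 FC (DD over LW pigs) of a probe of SLA class I or B2M, with its 95% confidence interval from limma, ordered within each gene. The SLA-3 probes spread from −0.04 to −1.25, whereas the 11 B2M probes lie between −0.13 and −0.31, left of the dotted median of all probes (−0.07).

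SLA-3, a classical heavy chain, had the lowest log2 FC. The deposited log2 intensity of A_72_P625308 was 11.97 to 13.60 in DD pigs (median 12.69) and 13.21 to 14.83 in LW pigs (median 13.88). In 9 of the 10 DD pigs it was below the lowest LW pig, and only DD_06 reached into the LW range. Its log2 FC was −1.25 ± 0.17 (SE, limma adjusted p = 8.13e-05), a signal 2.38-fold higher in LW pigs. Of all probes tested, 0.285% had every DD value below every LW value, and no member probe was among them. The probe A_72_P515992 ranged from 13.42 to 14.82 in DD pigs (median 14.05) and from 13.89 to 16.19 in LW pigs (median 15.37). Here 9 of the 11 LW pigs were above all DD pigs, and its log2 FC came to −1.16 ± 0.22 (SE, limma adjusted p = 0.00165). Its neighbour A_72_P609764, which shares 57 of its bases, gave −0.79 ± 0.18 (SE, limma adjusted p = 0.00777), with 13.91 to 15.39 in DD and 14.39 to 16.16 in LW pigs. The fourth called probe, A_72_P649741, reached −0.62 ± 0.21 (SE, limma adjusted p = 0.0433), and 4 DD pigs were below all LW pigs. This call was lost with no sow block (limma adjusted p = 0.0613) and on litter means (limma adjusted p = 0.0533), and held in 5 of 16 alternatives.

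The 4 SLA-3 probes that were not called had log2 FC of −0.04 (A_72_P517623), −0.19 (A_72_P440386), −0.68 (A_72_P683231) and −0.48 (A_72_P682906), with limma adjusted p-values of 0.919, 0.677, 0.113 and 0.0639. By position on the array's transcript, the 3 probes that start before base 1200 had log2 FC of −0.68 to −0.04, and 0 of them were called. The 5 that start later had log2 FC of −1.25 to −0.48, and 4 of them were called. The boundary of base 1200 was not among the planned comparisons, and A_72_P609764 was placed on another SLA-3 transcript than the others. In SLA-5 the called probe starts at base 265 and the one not called at base 1026. The 3 probes whose listed transcripts included SLA-2 gave −0.42 (A_72_P440391), −0.19 and −0.68, and 0 of them were called, so SLA-2 by itself was not measured.

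SLA-1, another classical heavy chain, also had probes with and without a call, but most of its probes had no start listed, and the 1 listed beyond base 1200, A_72_P035616, was not called (limma adjusted p = 0.0558). The probe A_72_P124686 was at 10.46 to 11.86 in DD pigs (median 11.02) and at 11.08 to 13.56 in LW pigs (median 11.86). The groups overlapped, with 5 DD pigs below all LW pigs and 6 LW pigs above all DD pigs, and its log2 FC came to −1.08 ± 0.27 (SE, limma adjusted p = 0.0123). CUST_366 ranged from 13.66 to 14.96 in DD pigs (median 14.18) and from 14.35 to 16.45 in LW pigs (median 15.14), and its log2 FC was −0.93 ± 0.22 (SE, limma adjusted p = 0.00928). In contrast, the brightest class I probe, CUST_30, had 17.06 to 18.38 in DD pigs (median 17.72) and 17.32 to 18.22 in LW pigs (median 17.92). Its log2 FC was −0.14 ± 0.13 (SE, limma adjusted p = 0.460). It turned to 0.38 (limma adjusted p = 0.0247) with the scanner's processed signal, scaled to the 75th percentile of each array, in place of the normexp-corrected and quantile-normalized values. The other SLA-1 probes gave −0.16 (CUST_238), −0.42 (A_72_P440391), −0.56 (A_72_P035616) and 0.10 (CUST_174), and were not called.

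SLA-5 had 2 probes with different outcomes. A_72_P414498 was at 6.85 to 9.37 in DD pigs (median 7.88) and at 7.89 to 11.16 in LW pigs (median 9.04), and its log2 FC came to −1.16 ± 0.28 (SE, limma adjusted p = 0.00955). The 5 lowest DD pigs were below all LW pigs, and the 4 highest LW pigs were above all DD pigs. The other probe, A_72_P441848, gave −0.18 ± 0.21 (SE, limma adjusted p = 0.557).

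**Figure D2:**
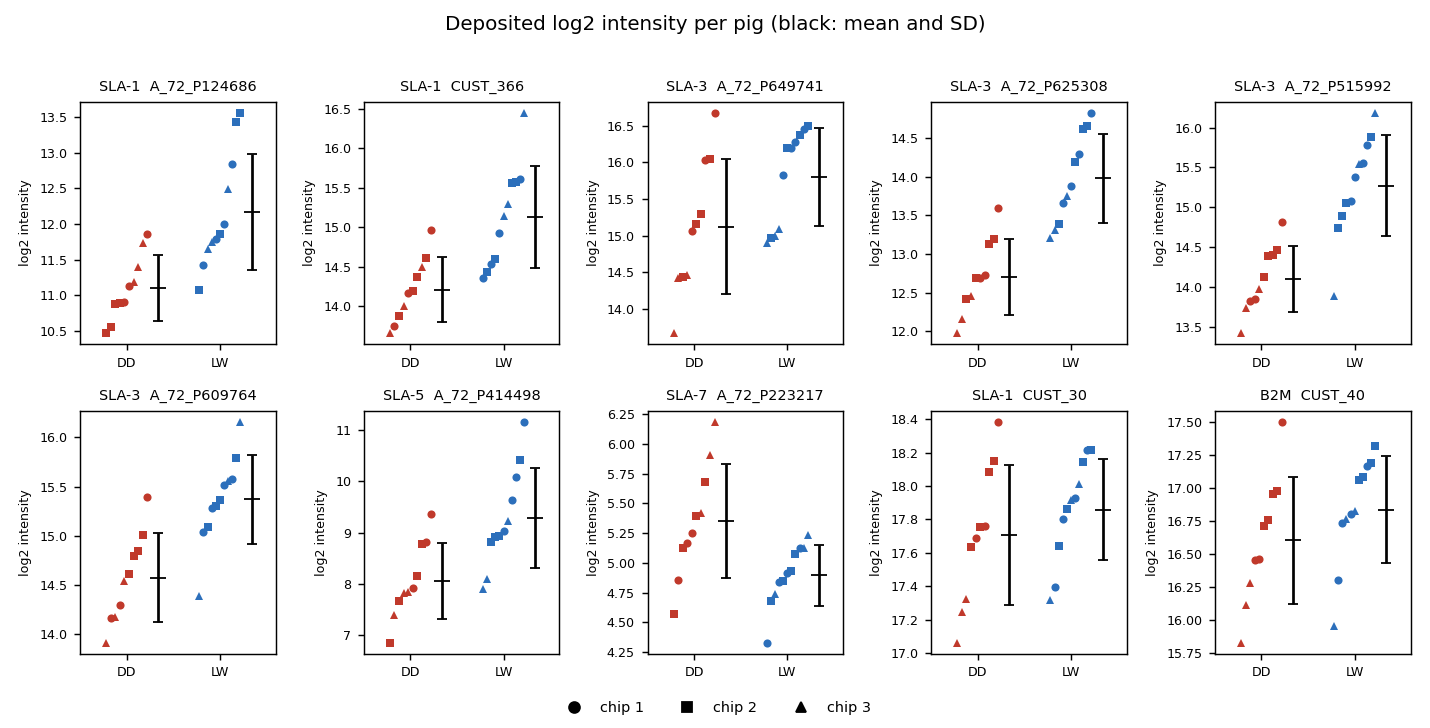
Deposited log2 intensity of the 8 called probes and of the brightest class I and B2M probes (CUST_30, CUST_40) in each of 10 DD and 11 LW pigs, with the mean and SD in black and the chip as the symbol. For A_72_P625308, 9 of 10 DD pigs lie below all LW pigs, while the groups overlap widely for CUST_30 and CUST_40.

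Of the non-classical genes, only SLA-7 had a called probe, and it was dim. A_72_P223217 was well above background in 5 of 10 DD and 7 of 11 LW pigs, with values of 4.57 to 6.19 in DD pigs (median 5.32) and 4.33 to 5.24 in LW pigs (median 4.91). Its log2 FC was 0.45 ± 0.14 (SE, limma adjusted p = 0.0293), the highest of all members, and it was 0.17 when an offset of 50 was added at background correction. The 4 SLA-8 probes gave −0.08 to 0.03, and 0 of them were called. The 95% confidence interval of the brightest of them, A_72_P070231, ran from −0.30 to 0.36, which leaves room for a modest difference. For SLA-6, A_72_P237292 gave −0.16 with an interval of −0.89 to 0.56. The other SLA-6 probe, A_72_P260597, was well above background in 1 of 10 DD pigs and in 0 of 11 LW pigs, so no fold is given for it.

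B2M, the light chain of all class I molecules, was measured by 11 probes that gave one picture. The brightest, CUST_40, was at 15.83 to 17.50 in DD pigs (median 16.59) and at 15.95 to 17.32 in LW pigs (median 16.82), and the ranges overlapped nearly in full. Its log2 FC was −0.23 ± 0.14 (SE, limma adjusted p = 0.246). CUST_232, with the same 60 bases, gave −0.25 ± 0.13 (SE, limma adjusted p = 0.148). The 11 log2 FC were −0.31 to −0.13, with adjusted p-values of 0.148 to 0.549, and 0 probes were called. Without adjustment, 0 of them had a p below 0.05, and exact permutation of the litter means had p-values from 0.0693 to 0.470. All 11 log2 FC were negative in the quantile-normalized values, and all 11 were positive, at 0.02 to 0.17, in the scanner's processed signal scaled to the 75th percentile.

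The breed difference of the called probes was read on each chip, because the study's methods noted a technical bias of chip 3, where the gap in brightness was also largest. All 7 probes called lower had a lower DD mean on each of the 3 chips, with a median difference of −0.73 on chip 1, −0.80 on chip 2 and −1.16 on chip 3. For A_72_P625308 the differences were −1.16, −1.35 and −1.22. For CUST_366 they were −0.56, −0.78 and −1.57. The B2M probes had a median difference of −0.02 on chip 1, −0.29 on chip 2 and −0.40 on chip 3. On chip 1, where the breeds were nearly equal in brightness, 7 of the 11 B2M probes were lower in DD pigs.

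**Figure D3:**
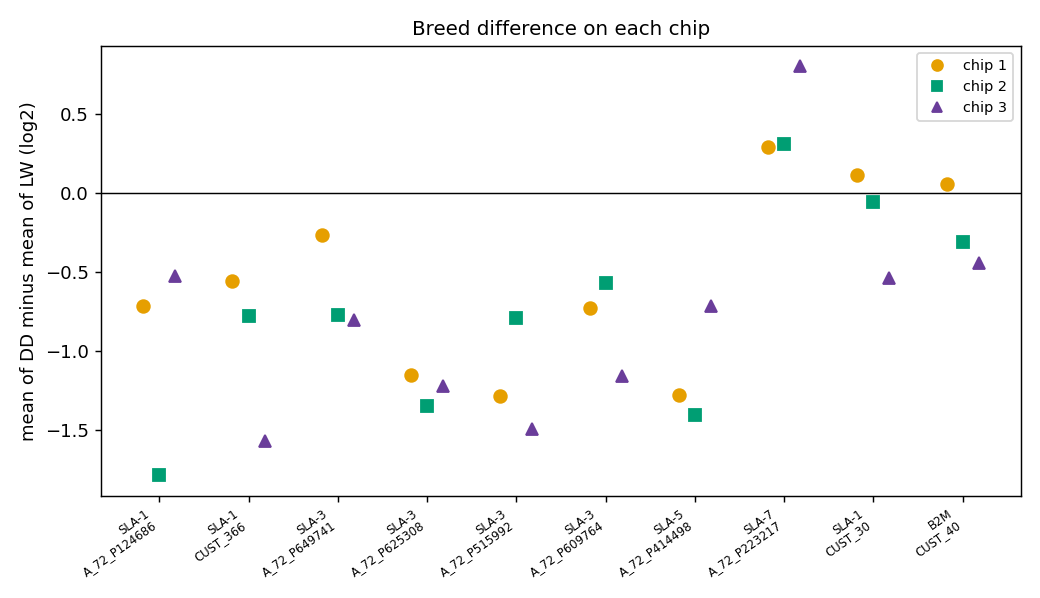
Mean of DD minus mean of LW pigs (log2) within each chip, for the 8 called probes and for CUST_30 and CUST_40. The 7 probes called lower are below 0 on all 3 chips, and A_72_P625308 has about the same difference on each. The 8 probes were called in a fit to these same arrays.

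Fitted without chip 3, A_72_P625308 (−1.29, limma adjusted p = 0.0102) and A_72_P515992 (−1.04, adjusted p = 0.0216) were the only members called, 2 of 35 beside 0.853% of all probes called lower. With the brightness of each array as a further covariate, only A_72_P625308 was called (−1.01, limma adjusted p = 0.0134), beside 1.34% of all probes called lower, and the members with a negative log2 FC were 11 of 35. The part of brightness in these results was not tested. 1 pig also weighed on the counts. DD_06 had the highest DD value on 32 of the 35 probes, among them all 11 of B2M. Its array was also the brightest of the DD arrays (8.49). DD_21, with the lowest DD value on 23 of the 35 probes, had the dimmest (6.56). Without DD_06, limma called 14 members lower and 1 higher, beside 14.7% of all probes called lower. The added ones were 5 B2M probes, with log2 FC of −0.41 (CUST_218), −0.40 (A_72_P752403), −0.36 (A_72_P751997), −0.35 (CUST_40) and −0.34 (CUST_232), and the class I probes A_72_P035616 and A_72_P682906.

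Because overlapping probes did not give the same breed difference, the log2 ratio of each of the 14 overlapping pairs was taken within every pig. The size of such a ratio depends on the probes, so only its difference between the breeds was read. Two-sided exact permutation tests of litter means were used, in which 0.00216 is the smallest p that the 462 divisions allow, and p-values were also adjusted over the 14 pairs. These comparisons were chosen after the values had been seen. The ratio differed between the breeds in 5 pairs, all of class I probes. The test was not passed by any of the 5 pairs of B2M probes, by the pair of SLA-8 probes, or by 3 further pairs of SLA-1 probes. Those were A_72_P124686 with CUST_366 (exact p = 0.959, 7 differing bases), A_72_P124686 with A_72_P035616 (exact p = 0.433, 2 differing bases) and CUST_238 with CUST_30 (exact p = 0.474, 1 differing base). Bases were aligned without gaps, and most of the 7 lie together near the overlap's end, where CUST_366 has a stretch that A_72_P124686 lacks. The ratio of A_72_P124686 to CUST_366 was −4.06 to −2.25 in DD pigs and −4.49 to −0.99 in LW pigs. Of the LW pigs, 3 were above and 2 below all DD pigs. The test reads means, not such a spread.

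The ratio of CUST_174 to A_72_P649741 was 0.77 ± 0.35 (SD, n = 10) for DD against 0.03 ± 0.24 (SD, n = 11) for LW pigs. It was above all LW pigs in 8 DD pigs, and the difference between litter means was 0.71 (exact p = 0.00216, adjusted over the pairs 0.0303). The ratio of A_72_P682906 to A_72_P625308, which share 42 identical bases, was 3.01 ± 0.37 (SD, n = 10) for DD against 2.23 ± 0.59 (SD, n = 11) for LW pigs. Of the LW pigs, 6 were below all DD pigs, and the difference was 0.79 (exact p = 0.0173, adjusted 0.0485). The SLA-1 probe CUST_366 and A_72_P035616, which share 31 identical bases, had a ratio of −2.01 ± 0.20 (SD, n = 10) in DD against −1.65 ± 0.34 (SD, n = 11) in LW pigs, with a difference of −0.42 (exact p = 0.00649, adjusted 0.0404).

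For A_72_P515992 and A_72_P609764, the ratio was −0.48 ± 0.08 (SD, n = 10) for DD against −0.10 ± 0.24 (SD, n = 11) for LW pigs, a difference of −0.38 (exact p = 0.00866, adjusted 0.0404). The DD pigs lay close together, from −0.58 to −0.31. The LW pigs fell apart, with LW_24, LW_12, LW_09 and LW_15 at −0.50 to −0.31 and the other 7 at −0.02 to 0.20. For A_72_P440391 and A_72_P440386 the ratio was 0.48 ± 0.14 (SD, n = 10) against 0.71 ± 0.20 (SD, n = 11), a difference of −0.23 (exact p = 0.0130, adjusted 0.0455). All 5 differences kept their sign on each chip, but without chip 1 none of them passed the adjusted threshold, and without chip 2 only the first did. The ratio of the SLA-8 probes was 0.37 ± 0.15 (SD, n = 10) against 0.34 ± 0.16 (SD, n = 11), and that of the identical B2M probes was −0.17 ± 0.10 against −0.15 ± 0.06, with exact p-values of 0.872 and 0.392. The amount of a transcript and the binding of a probe to the alleles that a pig carries cannot be told apart here.

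**Figure D4:**
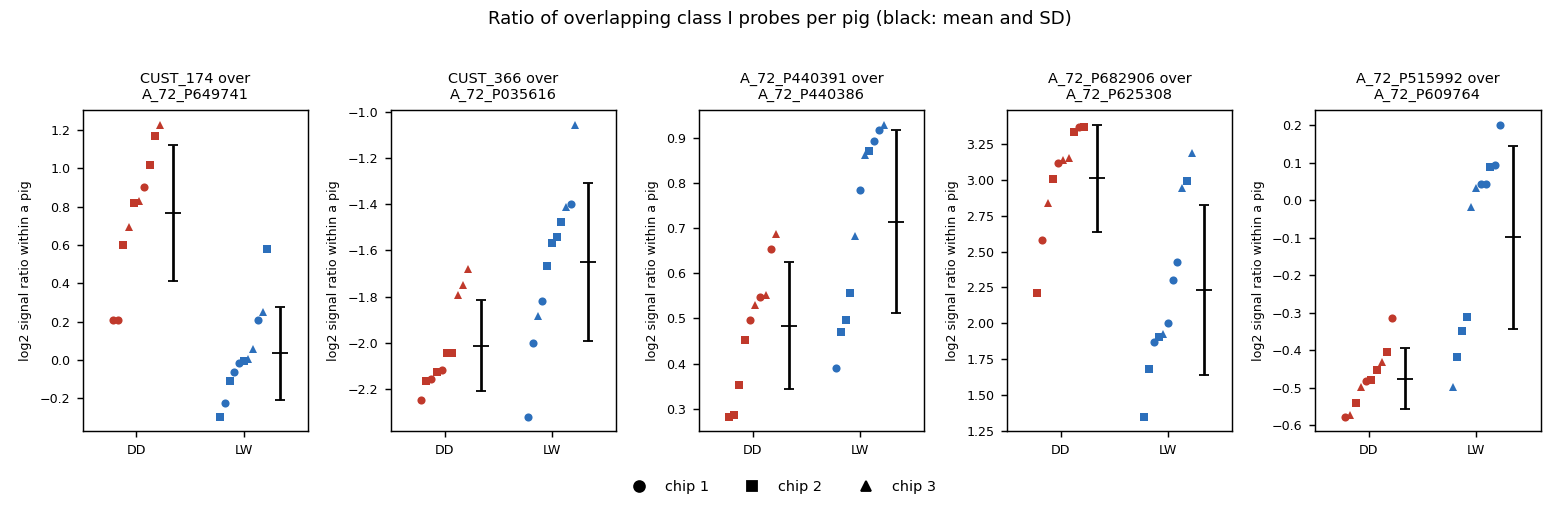
Log2 ratio of the signals of overlapping probes within each pig, for the 5 pairs whose ratio differed between the breeds, with the mean and SD in black and the chip as the symbol. The DD pigs are close together for A_72_P515992 over A_72_P609764 (−0.58 to −0.31), whereas the LW pigs span −0.50 to 0.20.

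DD pigs are homozygous at SLA and LW pigs are outbred, so the spread between pigs was also compared, with limma on absolute deviations from the breed mean. No member probe was called (0 of 35), 1 had an unadjusted p below 0.05, and among all probes 0.0155% were called larger in LW pigs and 0.0155% larger in DD pigs, with 3423 of 45228 below 0.05 without adjustment. The test thus called few probes of any kind, and 0 member calls do not show that the spread was equal. The SD was larger in LW pigs for 10 of 35 member probes, beside 31.2% of all probes, and the median ratio of the SD (LW over DD) was 0.83, beside 0.85 over all probes. At the extremes were A_72_P124686 of SLA-1, with an SD of 0.43 in DD and 0.82 in LW pigs (limma p = 0.027 unadjusted, adjusted p = 0.601), and the dim A_72_P260597 of SLA-6, with 0.87 and 0.40. The second highest ratio was that of A_72_P515992, with 0.35 in DD and 0.64 in LW pigs. The 4 SLA-8 probes were among those with a larger SD in DD pigs (0.41 to 1.19, against 0.35 to 0.58).

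**Figure D5:**
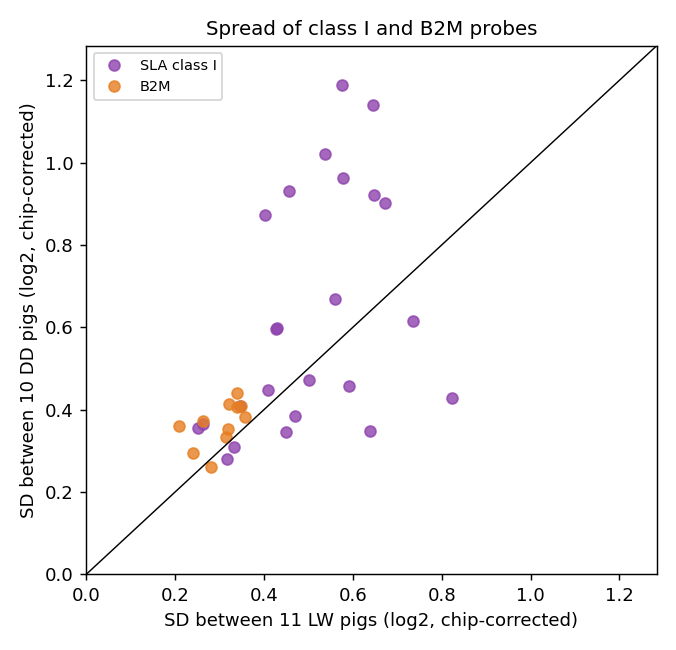
SD between the 11 LW pigs (x axis) and between the 10 DD pigs (y axis) of each class I and B2M probe, in chip-corrected log2 units, with the line of equal SD. Of the 35 probes, 10 lie below the line, that is with a larger SD in LW pigs.

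The members were then compared by their pattern across the 21 arrays, after the means of breed and chip had been removed. The B2M probes moved together, with a median Pearson r of 0.85 over 55 pairs (0.50 to 0.99), while class I probes had a median r of 0.36 over 276 pairs (−0.58 to 0.99). Between class I and B2M the median r was 0.50 over 264 pairs. The overlapping A_72_P682906 and A_72_P625308 had an r of 0.35, and CUST_30 and CUST_40 one of 0.89. The array and its brightness are shared by all these values, and pairs that share bases are not independent, so the correlations are descriptions. Among 16278 named probes that were not members, those most like CUST_40 were of PTPN1 (r = 0.91), SAP30L (0.91), IFI16 (0.91), N4BP1 (0.90) and ATP2A2 (0.89). Those most like CUST_30 were of KAT5 (r = 0.91), SAP30L (0.89), TBC1D1 (0.88), NCKAP1L (0.88) and LRP10 (0.88).

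The 28 probes for the genes that load and process class I peptides had a median log2 FC of 0.06, with 4 of them called higher and 1 called lower, beside the 11.0% and 10.7% of all probes. The higher ones were 1 probe of TAP2, a subunit of the peptide transporter (A_72_P013781, 0.71, limma adjusted p = 0.037), 2 of the chaperone CALR (0.55 and 0.79) and 1 of CANX (0.45), another chaperone. This CANX probe was dim, with means of 5.80 in DD and 5.33 in LW pigs. The brighter CANX probes, with means of 10.38 to 10.78, went the other way, at −0.24 and −0.19. The probe called lower was for PDIA3, the disulphide isomerase of the loading complex (A_72_P127691, −0.33). The other TAP2, CALR, CANX and PDIA3 probes were not called, and neither were TAP1, the immunoproteasome subunits PSMB8, PSMB9 and PSMB10, the activators PSME1 and PSME2, or ERAP1. Among 28 probes for the regulators of class I transcription, 3 were higher and 0 lower, namely 2 of RELA (0.45 and 0.90), a subunit of NF-κB, and 1 of RFX5 (0.51), which binds class I and class II promoters. The other RELA probe (−0.07) and the other RFX5 probes (−0.27 to 0.18) were not called. NLRC5, the transactivator of class I genes, gave 0.38 and 0.44 (limma adjusted p = 0.162 and 0.196). Of 10 probes for class I-like genes, 1 of PROCR was higher (0.65) and 1 of MIC-2 was lower (−0.78). This MIC-2 probe was well above background in 7 of 10 DD pigs, and the other gave −0.32 (limma adjusted p = 0.138).

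Of 9 probes for the receptors that bind class I, 1 was higher and 1 lower, beside the 11.0% and 10.7% of all probes. The higher one was of KIR2DL1 (0.54). The lower one was of CD8A, the coreceptor of cytotoxic T cells (A_72_P685866, 5.52 in DD and 6.65 in LW pigs, log2 FC −1.14, limma adjusted p = 0.006). That probe was well above background in 7 of 10 DD pigs, and the other CD8A probe, A_72_P077466, at 10.49 in DD and 10.85 in LW pigs, gave −0.39 (limma adjusted p = 0.226). A further 14 probes named a class I antigen without one of the SLA members. Of the 13 tested, 3 were called higher and 2 lower. The higher ones were a probe of HLA-E (O10747, 1.74, limma adjusted p = 0.047), whose values of 8.42 to 10.47 in DD and 3.69 to 10.21 in LW pigs overlapped, and those of the transcripts TC607699 (0.92) and TC550008 (0.50). TC538577 was lower (−0.58). The lowest was a probe of LOC100622689 (A_72_P625729), at 6.00 to 8.41 in DD pigs (median 7.01) and 7.85 to 13.05 in LW pigs (median 11.07), with a log2 FC of −3.87. The other probe of that gene, A_72_P262732, gave −0.29 and was not called.

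Interferon-stimulated genes and the markers of blood cells were read beside the class I genes. Of all probes, 11.0% were called higher and 10.7% lower, the shares to set beside the counts below. The 61 probes for interferon-stimulated genes had a median log2 FC of 0.62, and 30 of them were called higher and 0 lower, among them 2 probes each of MX2 (1.31 and 1.52), OAS1 (1.86 and 1.89) and CXCL10 (1.80 and 1.94). The others called were of MX1, IRF7, IFIT1, XAF1, ISG15, OAS2, BST2, DDX58, IFIT5, HERC5, IFI44 and ISG20. Without chip 3, 0 of the 61 were called higher, in a fit that called 263 of all 45228 probes higher. The mean level of that list, centred over the pigs and corrected for the chip, was −0.38 to 1.86 in DD pigs and −0.96 to 0.16 in LW pigs. DD_06, highest among the DD pigs on most class I probes and with the brightest DD array, had the 1.86. Of 18 T cell probes, 6 were lower and 0 higher, for CD3D (2 probes), CD3G (2), CD247 and LCK, with list levels of −0.87 to 0.31 in DD and −0.19 to 0.64 in LW pigs. Of 22 monocyte probes, 4 were lower, all of CD163, while 12 had a positive log2 FC and the median was 0.05. Also called were 4 of 11 erythroid probes, higher, 3 of CA1 (1.01 to 1.07) and 1 of EPB42 (1.06). Of these 11, 8 had a positive log2 FC, while the AHSP probes gave −0.25 and −0.28 and 1 SLC4A1 probe −0.18. Of 9 platelet probes, 1 was lower, of PPBP (−0.99). Not called were the B cell, cytotoxic and granulocyte markers, with 0 of 6 B cell, 0 of 8 cytotoxic and NK cell and 0 of 8 granulocyte probes. As for whole blood, CD3E of T cells, CD79A of B cells, CD14 of monocytes and S100A9 of granulocytes each had at least 1 probe well above background on all 21 arrays. The part of the make-up of the blood and of the interferon-stimulated genes in the class I differences was not tested.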

How the data were processed

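Whole blood RNA of 21 pigs was hybridized to a 1-colour Agilent custom pig array. The authors deposited, per array, the scanner's spot and background intensity (Agilent Feature Extraction 10.7.3.1) and a matrix of log2 intensity, background corrected with normexp and quantile normalized in limma after 3 outlier arrays of 24 had been removed. The removed arrays were not analysed here. Of the matrix, 2477 rows were blank. Removing the 25% of probes with the lowest mean left 45228. Values were fitted probe by probe with limma as described above (consensus correlation of the sow −0.11, and −0.04 for the spread), with probe signals not averaged, since variants can lie under single probes. Probes of the scanner files with the flag for well above background were counted as measured.

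Alternatives were values re-computed from the scanner intensity, an offset of 50, scaling to the 75th percentile, other filters, omission of the sow or of the chip, averaged litters, each chip alone or left out, brightness as a covariate, trend and robust fitting, averaging by gene name, exact permutation, and each pig left out with the correlation fixed. Scaling to the 75th percentile used the scanner's processed signal, so the background correction changed together with the normalization. Named were the brightest probe of each gene, all called probes, the extremes and, in other lists, genes with a called probe. The members and lists were chosen with earlier results of these data known. The steps were tested on simulated data. The tools were R 4.3.3, limma 3.58.1, statmod 1.5.0, version 1.17.8 of data.table, Python 3.11.15, pandas 2.3.3 and matplotlib 3.10.9.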

Additional observations from a re-analysis of the deposited data

Results flagged for a closer look

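The dim SLA-6 probe A_72_P260597 was 7.06 (log2) in DD_08, with the next DD pig at 4.81. Among the 10 DD pigs this gap took 0.648 of the whole range, above Dixon's 95% critical value for that number of samples. DD_08 was the 1 DD pig in which the probe was well above background. Of the 35 probes examined in this way 1 was picked out, where chance alone picks out about 1 in 20 groups. The LW group of 11 pigs was not examined.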

How the results depend on the processing

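The 7 members called lower in DD pigs numbered 6 to 14 with each pig left out, the 14 without DD_06. They were 2 without chip 3 (0.853% of all probes were then called lower), 0 within chip 1 or chip 2 alone (0.0796% and 0.111%), 3 within chip 3 alone (8.04%), 1 with array brightness as a covariate (1.34%), and 3 of 9 gene names when probes were averaged (9.23%). The 1 member called higher (SLA-7) numbered 0 to 1 with each pig left out and 4 after scaling to the 75th percentile, where 3 SLA-1 probes were added. The count was 0 with no chip term, without chip 3, within each chip alone, and with brightness as a covariate. It was also 0 with the filter on probes well above background in a breed, which removed the SLA-7 probe before testing. Of all probes, 4854 were called lower and 4955 higher, but 3113 and 6100 after scaling to the 75th percentile. With no sow block, whose fitted correlation was negative (−0.11), they were 3468 and 3403, and 6 members were lower. The other alternatives gave 5 to 9 members lower. The members called for a difference in spread were 0 with re-computed values, the 75th percentile, no filter, deviations from the median and no sow block, and 0 to 0 with each pig left out, the alternatives run for it. The probes A_72_P625308, A_72_P515992, A_72_P609764, CUST_366, A_72_P124686 and A_72_P414498 were called with every pig left out in turn. A_72_P649741 was called in 5 of 21 such fits and A_72_P223217 in 14 of 21, and no sign of these 8 changed in any fit.

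Of other class I pathway probes, 3 were called lower and 9 higher. The lower ones were 5 with an offset of 50, 6 without chip 1, 1 without chip 2, with no chip term or within chip 3 alone, 0 without chip 3, within chip 1 or chip 2 alone, or with brightness as a covariate, and 2 to 6 with each pig left out. The higher ones were 0 with no chip term, without chip 3, within chip 1 or chip 2 alone, or with brightness as a covariate, 2 with averaged gene names, and 4 to 10 with each pig left out. The cause of these changes was not tested.

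Probes that were not called changed sign under some alternatives. CUST_30 turned to 0.38 with the 75th percentile, 0.014 without chip 3, 0.11 within chip 1 and 0.23 with brightness, and CUST_40 to 0.17, 0.053 within chip 1 and 0.16 with brightness. A_72_P441848 turned to 0.032 with the 75th percentile, 0.011 without chip 2 and 0.20 with brightness. A_72_P237292 turned to 0.19 without chip 2, 0.80 within chip 3, 0.17 with brightness and 0.13 without DD_16, in a range of −0.32 to 0.13 with each pig left out. A_72_P070231 turned to −0.0021 with no chip term, −0.087 without chip 1, −0.16 within chip 2, and below 0 without DD_06, DD_10, DD_11 or LW_07, in a range of −0.050 to 0.12 with each pig left out. No paired analysis was possible because the numbers of the pigs are not shared between the breeds.

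The 5 within-pig ratios kept their sign in all fits, with adjusted p-values over the pairs of up to 0.126 with a pig left out. Without chip 1, the adjusted p of the ratio of A_72_P682906 to A_72_P625308 was 0.317 and those of the other 4 were 0.074 to 0.111. Without chip 2 the ratio of CUST_174 to A_72_P649741 was at 0.0303 and the other 4 at 0.061 to 0.212. With no chip term that ratio was also the 1 below 0.05, with the others at 0.053 to 0.055, and the ratio of A_72_P440391 to A_72_P440386 was at 0.067 after scaling to the 75th percentile or without chip 3. Dim probes such as those of SLA-7 and SLA-6 were limited by their signal over background.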
